A study of Mus musculus with 155 samples.

Results

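Imprinted genes, which are read mainly or only from the copy inherited from 1 parent, were followed by RNA-seq in mouse embryonic stem cells (ESCs) and in cells made from them. They were chosen by name, with earlier results of these data known, from well-known mouse imprinted genes of many imprinted regions, Grb10 included. Of 38 listed genes 34 were found among the 55471 genes of the count tables: 12 expressed from the maternal copy, 19 expressed from the paternal copy, and 3 (Ube3a, Gnas and Ddc) whose use of the parental copies depends on the tissue. Rian, Mirg, Kcnq1ot1 and Peg13 were not matched and are not analysed here. All cells were KH2 mouse ESCs or their derivatives, carrying 1 extra copy of histone H3.3 with a SNAP-HA tag that doxycycline (Dox) turns on, either unaltered (WT-H3.3) or with lysine 27 replaced by methionine (H3.3K27M) or by leucine (H3.3K27L). ESCs were kept in LIF/2i medium and sampled after 4, 8, 24 or 72 h of Dox, with 2 libraries per line and time. They made 4 groups of 8 libraries: H3.3K27L, H3.3K27M, WT-H3.3 alone, and WT-H3.3 given Dox together with GSK343, an inhibitor of the histone methyltransferase EZH2. Cells treated with retinoic acid (RA) were sampled after 24 and 72 h of Dox, with 1 library per time for each of the 3 lines. Cells differentiated to oligodendrocyte progenitor cells (OPCs) were sampled at the same times, with 1 library per time for WT-H3.3 and H3.3K27M. Every library came from Dox-induced cells, and no uninduced library was used. The lines were grown from hygromycin-selected colonies, so a difference between lines and a difference between the colonies they came from cannot be told apart.

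In mammals the copies of an imprinted gene are told apart by DNA methylation that is laid down in the egg or sperm at imprinting control regions and kept through later cell divisions. ZFP57, a zinc-finger protein, binds the methylated hexamer TGCCGC at these regions and with TRIM28 keeps the methylation in ESCs. Many of the genes act on growth: paternally expressed genes tend to favour growth of the embryo and placenta, and maternally expressed genes such as Grb10, Igf2r, Cdkn1c and Phlda2 tend to restrain it. Grb10 encodes an adaptor protein that binds the insulin and IGF1 receptors and dampens their signalling. It is read from the maternal copy in most tissues and from the paternal copy in neurons.

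Library totals ran from 68378 to 21161392 counts in ESCs, from 2239137 to 22269533 in RA-treated cells and from 7499258 to 12387113 in OPCs. The 68378 counts came from replicate 2 of the H3.3K27L ESCs at 72 h. Calls and overlaps of libraries for this line are also given without it. Means by time and by replicate number include it with the same weight as the other libraries. The 7 ESC markers summed to between 1930 and 5150 CPM (counts scaled to library size) in H3.3K27L ESC libraries. In the other ESC groups the sum was between 3580 and 4940 CPM. It was between 194 and 524 CPM in RA-treated cells, which GEO labels as neural progenitor cells. Markers of neural progenitors summed to between 280 and 774 CPM in RA-treated cells, and markers of extraembryonic endoderm, an early embryonic lineage outside the embryo proper, to between 816 and 6870 CPM. In OPCs the 8 OPC markers summed to between 631 and 2180 CPM. These are bulk libraries, in which fewer cells of a type and less RNA per cell cannot be told apart.

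Promoter sequences are shown for 4 genes that were called in H3.3K27L ESCs: Grb10, which was higher, Mest and Peg3, which were lower, and Nap1l5, which was lower on few counts and is shown for its matches to the hexamer. They are RefSeq windows on GRCm38.p6 from 250 bases before to 50 bases after a transcript start, written on the gene's own strand, with matches to TGCCGC or its reverse complement GCGGCA in capitals. The first Grb10 window is at chr11:12037371-12037670, minus strand, and holds 45 CpG dinucleotides, and the second is at chr11:12027922-12028221, minus strand, and holds 9. The Mest window (one of 3 starts) is at chr6:30737800-30738099, plus strand, the Nap1l5 window at chr6:58907077-58907376, minus strand, and the Peg3 window at chr7:6730370-6730669, minus strand.
Grb10 window 1: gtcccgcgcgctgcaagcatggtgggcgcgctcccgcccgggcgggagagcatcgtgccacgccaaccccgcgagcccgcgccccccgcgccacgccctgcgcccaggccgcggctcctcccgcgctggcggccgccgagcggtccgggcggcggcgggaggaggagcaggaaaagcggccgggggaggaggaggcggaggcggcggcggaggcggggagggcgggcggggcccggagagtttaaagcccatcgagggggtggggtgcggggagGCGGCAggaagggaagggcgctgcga
Grb10 window 2: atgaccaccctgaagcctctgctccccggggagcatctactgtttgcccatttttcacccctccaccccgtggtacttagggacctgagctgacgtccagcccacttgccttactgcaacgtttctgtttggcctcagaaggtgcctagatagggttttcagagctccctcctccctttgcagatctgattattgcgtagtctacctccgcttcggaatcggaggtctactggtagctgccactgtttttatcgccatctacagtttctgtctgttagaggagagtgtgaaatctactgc
Mest: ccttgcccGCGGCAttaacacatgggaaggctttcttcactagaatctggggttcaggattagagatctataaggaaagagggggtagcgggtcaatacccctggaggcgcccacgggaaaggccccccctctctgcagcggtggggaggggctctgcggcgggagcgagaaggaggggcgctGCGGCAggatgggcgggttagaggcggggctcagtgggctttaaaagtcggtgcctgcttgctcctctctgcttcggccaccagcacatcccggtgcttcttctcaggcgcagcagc
Nap1l5: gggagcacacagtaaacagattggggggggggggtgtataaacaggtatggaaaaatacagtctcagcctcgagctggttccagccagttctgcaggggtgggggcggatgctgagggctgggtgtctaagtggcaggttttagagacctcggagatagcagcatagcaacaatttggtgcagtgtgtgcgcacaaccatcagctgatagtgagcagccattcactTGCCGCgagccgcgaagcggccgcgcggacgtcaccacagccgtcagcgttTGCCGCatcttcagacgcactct
Peg3: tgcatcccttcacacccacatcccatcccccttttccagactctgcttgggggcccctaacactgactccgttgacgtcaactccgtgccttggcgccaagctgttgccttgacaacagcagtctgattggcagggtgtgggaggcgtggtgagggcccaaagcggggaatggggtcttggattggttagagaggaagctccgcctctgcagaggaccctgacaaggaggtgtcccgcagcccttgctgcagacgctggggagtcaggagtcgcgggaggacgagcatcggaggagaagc

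The first Grb10 window holds 1 match, and the Mest and Nap1l5 windows shown hold 2 each. The second Grb10 window and the Peg3 window hold none. Of the Mest windows not shown, that at chr6:30733256-30733555 holds none. The other, at chr6:30737803-30738102, is nearly the same stretch as the one shown and holds 2. Windows were used for 27 of the 34 genes, 41 windows in all, with overlapping windows of a gene counted separately. Impact, on chromosome 18, was left out of this set, while the set of all windows was not limited by chromosome. A match stood in 11 of these (26.8%), belonging to 10 genes, and in 11.6% of all 32851 windows of this length. The genes with a match were 3 of 9 maternally and 7 of 15 paternally expressed genes with a window. CpG dinucleotides numbered 15 per window at the median for the imprinted genes and 7 for all windows. A match describes only the letters of the window.

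In ESCs expressing H3.3K27L, Grb10 was higher than in WT-H3.3 ESCs at every time. Grb10 (chr11, 11830511 to 11938686 on the minus strand of mm9) was measured at 9.43 CPM in the lowest, 12.1 at the median and 16.4 in the highest of 8 WT-H3.3 libraries. In the 8 H3.3K27L libraries it was 42.5 CPM in the lowest, 94.1 at the median and 161 in the highest. Every H3.3K27L library lay above every WT-H3.3 library. The log2 fold change was 3.07 (SE 0.28), an 8.40-fold difference, with an adjusted p of 2.82e-07 by edgeR's quasi-likelihood test with Benjamini-Hochberg adjustment, which gave all adjusted p-values here. The 8 libraries together held 6697 Grb10 counts in H3.3K27L and 1137 in WT-H3.3. The mean in H3.3K27L was 7.53 times that in WT-H3.3 at 4 h, 5.95 times at 8 h, 8.57 times at 24 h and 10.4 times at 72 h of Dox. The mean at 72 h includes the shallow library. The other 7 H3.3K27L libraries ran from 42.5 to 161 CPM, with a median of 132. The line held separate levels by replicate number: 132 to 161 CPM in the 4 libraries numbered 1 and 42.5 to 56.4 CPM in the 4 numbered 2, which were 12.1 and 3.93 times the WT-H3.3 libraries of the same number. Grb10 was thus above WT-H3.3 within either number. The ESC fit held no replicate term and took the 8 libraries of a group as independent. Its SE and p-values, for Grb10 and the other genes, do not measure the spread between experiments. The Grb10 value ran from 2.74 to 3.23 when single libraries were left out. Genes within 1 Mb of Grb10 that could be tested were Ikzf1, Fignl1, Ddc, 1700042O10Rik and Cobl. Their log2 fold changes lay between -0.23 and 0.29, and none passed the threshold.

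**Figure D1:**
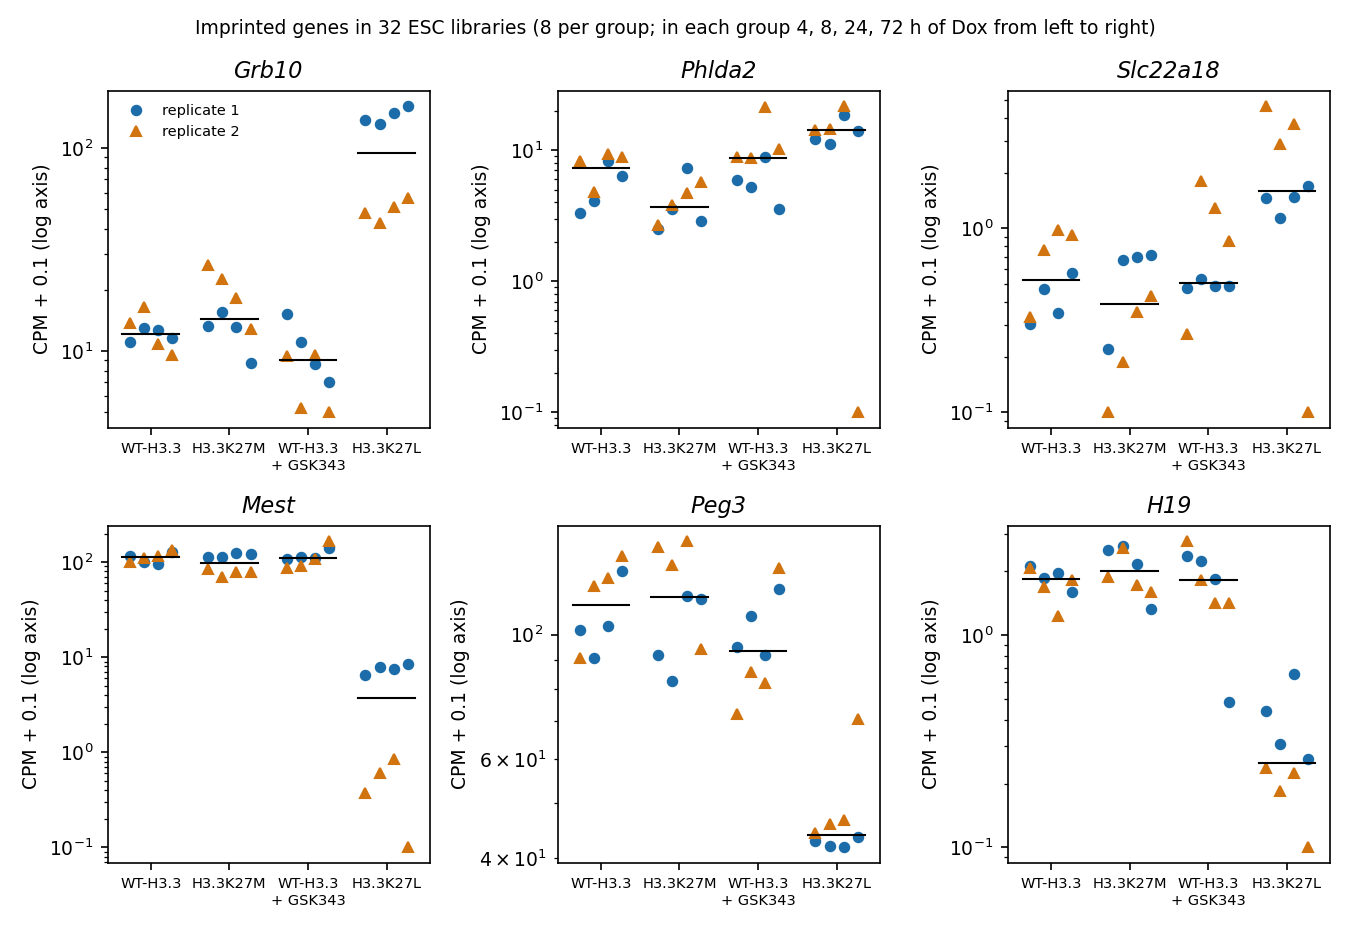
Level of 6 imprinted genes in each of the 32 ESC libraries, in CPM with 0.1 added on a log axis, by group. Each point is a library, the shape gives the replicate number and the bar the group median. Grb10 in H3.3K27L sits between 42.5 and 161 CPM, above the 9.43 to 16.4 CPM of WT-H3.3, and Mest sits between 0 and 8.35 CPM, below 95.7 to 135.

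A gene was called different when its adjusted p was under 0.05 and it changed more than 2-fold. By this rule 10 of the 30 imprinted genes that passed the filter on low counts were called between H3.3K27L and WT-H3.3 ESCs, beside 3.46% of all 14076 genes tested. The 4 that did not pass the filter were Igf2, Airn, Kcnq1 and Magel2. Of the 11 maternally expressed genes tested 3 were called higher (0.625% of all genes) and 1 lower (2.83% of all genes). Of the 16 paternally expressed genes tested none was called higher and 6 were called lower. None of Ube3a, Gnas and Ddc was called. Without replicate 2 at 72 h, the shallow library, 10 imprinted genes were called. Without replicate 1 at 72 h, which leaves that time to the shallow library alone, 5 were called: Grb10, Mest, Peg3, H19 and Mcts2.

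Beside Grb10, Phlda2 and Slc22a18 rose and H19 fell among the maternally expressed genes of H3.3K27L ESCs. Phlda2, a pleckstrin-homology protein that restrains placental growth, stood at 3.24, 7.19 and 9.21 CPM in the lowest, median and highest WT-H3.3 library and at 0, 14.0 and 21.7 CPM in H3.3K27L. The zero was the shallow library, and the other 7 H3.3K27L libraries all lay above WT-H3.3. Phlda2 rose by 1.18 log2 units (SE 0.24, adjusted p = 0.00276), and without replicate 1 at 72 h its value was -1.26 and not called. Slc22a18, an organic cation transporter-like gene of the same Kcnq1 region, was at 0.202, 0.422 and 0.883 CPM in WT-H3.3 and at 0, 1.5 and 4.54 CPM in H3.3K27L. It rose by 2.23 (log2, SE 0.41, adjusted p = 0.00119) on 143 counts over the H3.3K27L libraries against 44 over WT-H3.3, and was not called without replicate 1 at 72 h, where its value was 0.54. H19, a long noncoding RNA of the H19-Igf2 region, went the other way: it was at 1.14, 1.74 and 2.02 CPM in WT-H3.3 and at 0, 0.149 and 0.557 CPM in H3.3K27L, with no overlap. H19 fell by 2.92 log2 units (SE 0.33, adjusted p = 4.78e-06), on 14 counts against 154, and its value was -3.80, still called, without replicate 1 at 72 h. The tetraspanin gene Cd81 (log2 fold change 0.53, adjusted p = 0.00137) and H13, which encodes signal peptide peptidase (0.42, adjusted p = 0.00729), passed the adjusted p but not the 2-fold rule. Cdkn1c, a cyclin-dependent kinase inhibitor, had a value of 0.92 (SE 0.33, adjusted p = 0.0904), and the remaining maternally expressed genes, Ascl2, Igf2r, Meg3 and Zim1, had values from -0.47 to 0.77.

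Mest, Peg3, Usp29, Mcts2, Nap1l5 and Dlk1, all paternally expressed, fell in H3.3K27L ESCs. Mest, a hydrolase-family gene of mesoderm and its derivatives, was at 95.7 CPM in the lowest, 114 at the median and 135 in the highest WT-H3.3 library, and at 0, 3.61 and 8.35 CPM in H3.3K27L. The groups were far apart, with 308 Mest counts over the H3.3K27L libraries against 10309 over WT-H3.3. Mest fell by 4.60 log2 units (SE 0.42, adjusted p = 2.71e-07), with values from -6.87 to -4.33 when single libraries were left out. The mean in H3.3K27L was 0.0311, 0.0394, 0.0383 and 0.0318 times that in WT-H3.3 at 4, 8, 24 and 72 h. By replicate number it was 6.47 to 8.35 CPM in the H3.3K27L libraries numbered 1 and 0 to 0.747 CPM in those numbered 2. Mest overlaps Copg2 on the opposite strand, and whether counting used strand is not given in the sources used here, so that their reads cannot be told apart. The same holds for Nap1l5 and Herc3, Zrsr1 and Commd1, Nnat and Blcap, Igf2r and Airn, Gnas and Nespas, and Cd81 and R74862. Peg3, a zinc-finger gene, was at 90.6, 113 and 138 CPM in WT-H3.3 and at 41.6, 43.9 and 70.5 CPM in H3.3K27L, without overlap. Peg3 fell by 1.33 (log2, SE 0.13, adjusted p = 6.66e-07). Its neighbour Usp29, a ubiquitin-protease-family gene, was at 1.22, 2.30 and 3.32 CPM in WT-H3.3 and at 0, 0.973 and 1.68 CPM in H3.3K27L, which overlap, and fell by 1.19 (SE 0.28, adjusted p = 0.00805).

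Nap1l5 and Mcts2 are intronless genes lying inside introns of Herc3 and H13. Mcts2 was at 26.2, 35.7 and 40.4 CPM in WT-H3.3 and at 0, 16.6 and 19.96 CPM in H3.3K27L, without overlap, and fell by 1.11 log2 units (SE 0.15, adjusted p = 7.56e-05). Without replicate 1 at 72 h, which leaves that time to the shallow library with its 0, the Mcts2 value was -3.54 and still called, and its highest value with 1 library left out was -1.07. Its host H13, on the same strand, had the small positive value given above, and counting could have split reads between them. Nap1l5 was at 0.506, 0.788 and 1.72 CPM in WT-H3.3 and at 0, 0.138 and 0.321 CPM in H3.3K27L, on 79 against 10 counts, and fell by 2.25 (SE 0.46, adjusted p = 0.003). Dlk1, a membrane protein related to Notch ligands, was at 1.01, 1.91 and 3.60 CPM in WT-H3.3 and at 0, 0.455 and 0.836 CPM in H3.3K27L. It fell by 2.12 (SE 0.38, adjusted p = 0.000999) on 198 against 32 counts. Without replicate 1 at 72 h, Dlk1 (-3.56, adjusted p = 0.149), Nap1l5 (-3.36, adjusted p = 0.229) and Usp29 (-2.75, adjusted p = 0.378) had values further below 0 that were not called. Zrsr1, an intronless gene inside Commd1 (-0.68, adjusted p = 0.00371), and Ndn, a MAGE-family gene of the Snrpn region (-0.72, adjusted p = 0.0285), passed the adjusted p but not the 2-fold rule. The 8 others, among them Sgce, Plagl1, Peg10 and Snrpn, had log2 fold changes from -0.92 to -0.06.

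**Figure D2:**
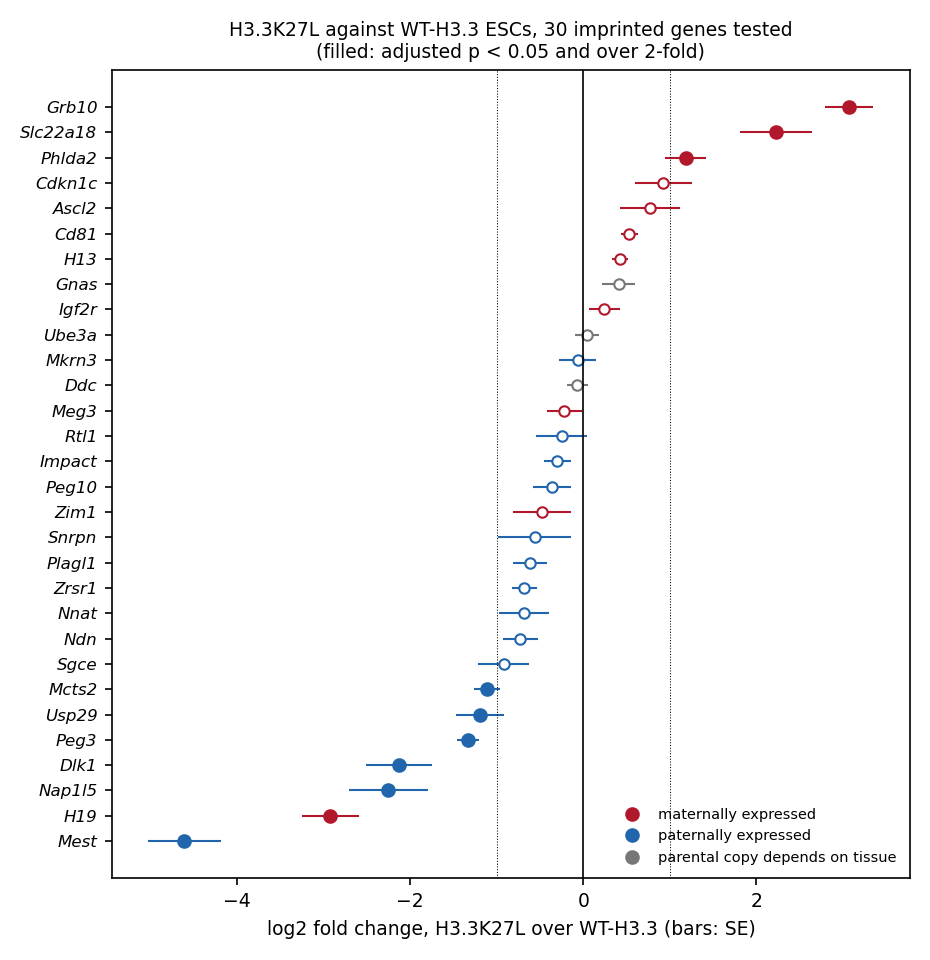
Log2 fold change of the 30 tested imprinted genes in H3.3K27L against WT-H3.3 ESCs, with standard error bars, by parental expression. Filled points mark the 10 called genes. Grb10 at 3.07 and Mest at -4.60 are at the ends, and the paternally expressed genes lie below 0.

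The log2 fold changes of the parental groups lay on different sides of 0 in the fit averaged over times and replicates. All 16 tested paternally expressed genes had a value below 0, with a median of -0.70, and 8 of 11 maternally expressed genes had a value above 0, with a median of 0.53. Over all 14076 genes 6764 values were above and 7312 below 0, with a median of -0.01. These counts describe the genes that passed the filter and were not tested as sets. The split was also counted by replicate number. Libraries of these lines with the same number deviated from their group means in opposite directions at 4, 8 and 24 h (r from -0.708 to -0.598 across 8507 genes). With equal numbers set side by side, the ratio of H3.3K27L to WT-H3.3 means was below 1 for 12 of 16 paternally expressed genes in libraries numbered 1 and for 14 of 16 in those numbered 2, with medians of 0.47 and 0.524. It was above 1 for 7 of 11 maternally expressed genes in either set, with medians of 1.5 and 1.28. The H3.3K27L means numbered 2 weigh the shallow library like the others, and these counts by number were not made without it. With the numbers crossed at all times, a choice made after seeing the data, the ratio was below 1 for 14 of 16 paternally expressed genes against WT-H3.3 number 1 and for 16 of 16 against number 2, and above 1 for 8 of 11 maternally expressed genes against either. With the numbers crossed at 4, 8 and 24 h alone, the paternal counts were again 14 and 16, and the maternal counts were 9 and 5 of 11. Grb10 was the single imprinted gene whose 8 H3.3K27L libraries all lay above all 8 WT-H3.3 libraries, as did 0.213% of all genes. Dlk1, H19, Mcts2, Mest, Nap1l5 and Peg3 lay entirely below, as did 1.33% of all genes. With the shallow library set aside, Cd81, Phlda2 and Slc22a18 joined Grb10 above (0.774% of all genes) and Zrsr1 joined the 6 below (1.49% of all genes).

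Genes that keep or erase imprints or write H3K27me3, other imprinted genes with their hosts, and genes of insulin and IGF signalling gave 2 calls in H3.3K27L ESCs, both lower, beside the 2.83% of all genes called lower. Of 21 tested genes of the first list 1 was called, Dnmt3l, a DNA methyltransferase cofactor, which fell by 1.16 log2 units (SE 0.30, adjusted p = 0.0171). None of 26 tested further imprinted genes and host genes was called. Of 20 tested genes of insulin and IGF signalling 1 was called, Grb14, a relative of Grb10, which fell by 1.01 (SE 0.31, adjusted p = 0.0435). The medians of these lists were 0.05, -0.02 and 0.06. Markers of extraembryonic endoderm summed to 93.1 to 166 CPM in H3.3K27L, 43.5 to 117 in WT-H3.3 and 56.5 to 158 in H3.3K27M ESCs. In H3.3K27L against WT-H3.3, 1 of 5 tested markers was called higher and 1 lower. Their part in the imprinted gene differences was not tested.

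The time on Dox made no call among imprinted genes within H3.3K27L ESCs. Comparing how the H3.3K27L difference at 24 and 72 h differed from that at 4 and 8 h, 0 of 30 imprinted genes and 0% of all genes were called by edgeR. Zim1 (-1.45 log2), Rtl1 (-1.30) and Igf2r (-0.61) ranked first, all with an adjusted p of 1, and 2 genes were under an unadjusted 0.05. DESeq2 called 0 as well. For Grb10 the difference was 0.66 (SE 0.53, adjusted p = 1), and it was -0.02 without replicate 1 at 72 h. At 4 h, the earliest time, Grb10 and Mest already had the 7.53-fold and 0.0311-fold ratios given above. With no uninduced library, a difference present before Dox and one that arose within 4 h cannot be told apart.

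In ESCs expressing H3.3K27M, or given GSK343, no imprinted gene was called against WT-H3.3. In H3.3K27M ESCs Grb10 was at 8.59, 14.3 and 26.6 CPM in the lowest, median and highest library, which overlapped WT-H3.3 (log2 fold change 0.37, SE 0.27, adjusted p = 0.614), and Mest was at 69.8, 98.5 and 124 CPM. None of 30 imprinted genes was called, beside 0.0142% of all genes (0.0071% higher and 0.0071% lower). Phlda2 (-0.72, adjusted p = 0.268), Zim1 (-0.81, adjusted p = 0.335) and Igf2r (0.37, adjusted p = 0.416) ranked first, the 3 genes under an unadjusted 0.05 by edgeR, and DESeq2 called 0 as well. With the replicate numbers as a block, which pair these lines, 24 genes were called in all in place of 2, and still 0 imprinted genes. With GSK343 Grb10 was at 4.88, 8.96 and 15.1 CPM (-0.46, SE 0.29, adjusted p = 0.975). None of 30 imprinted genes was called, beside 0% of all genes. Snrpn, which encodes a splicing protein, ranked first (-1.36, SE 0.44, adjusted p = 0.975), ahead of Nnat (0.54) and Zrsr1 (-0.25), and was the 1 gene under an unadjusted 0.05 by edgeR. DESeq2 called 0 as well. Without the filter on low counts Snrpn was called (-1.41, adjusted p = 1.3e-10), 1 of 25 genes called under that setting.

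Set against H3.3K27M rather than WT-H3.3, H3.3K27L ESCs gave 11 called imprinted genes of 30, beside 3.82% of all genes (1.18% higher and 2.64% lower). Both comparisons share the H3.3K27L libraries. Grb10 was higher by 2.7 (log2, SE 0.28, adjusted p = 1.33e-06), Phlda2 by 1.90 (SE 0.25, adjusted p = 3.81e-05) and Slc22a18 by 2.98 (SE 0.48, adjusted p = 0.000337). Cdkn1c, whose medians were 2.95 CPM in H3.3K27L and 1.17 in H3.3K27M, was higher by 1.22 (SE 0.35, adjusted p = 0.0259). Mest was lower, at -4.40 (adjusted p = 4.22e-07), as were Peg3 at -1.37 (adjusted p = 4.22e-07) and H19 at -3.10 (adjusted p = 2.16e-06). Usp29 (-1.43), Dlk1 (-1.88), Nap1l5 (-2.15) and Sgce (-1.31), which encodes a membrane glycoprotein, were also called lower. Without replicate 1 of H3.3K27L at 72 h, 5 were called, and Phlda2 (-0.55) and Cdkn1c (-0.68) took values below 0 that were not called. Slc22a18 (1.29), Usp29 (-2.99), Dlk1 (-3.32), Nap1l5 (-3.28) and Sgce (-2.68) were not called either under that setting, while Mest (-6.67) and H19 (-3.99) were.

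**Figure D3:**
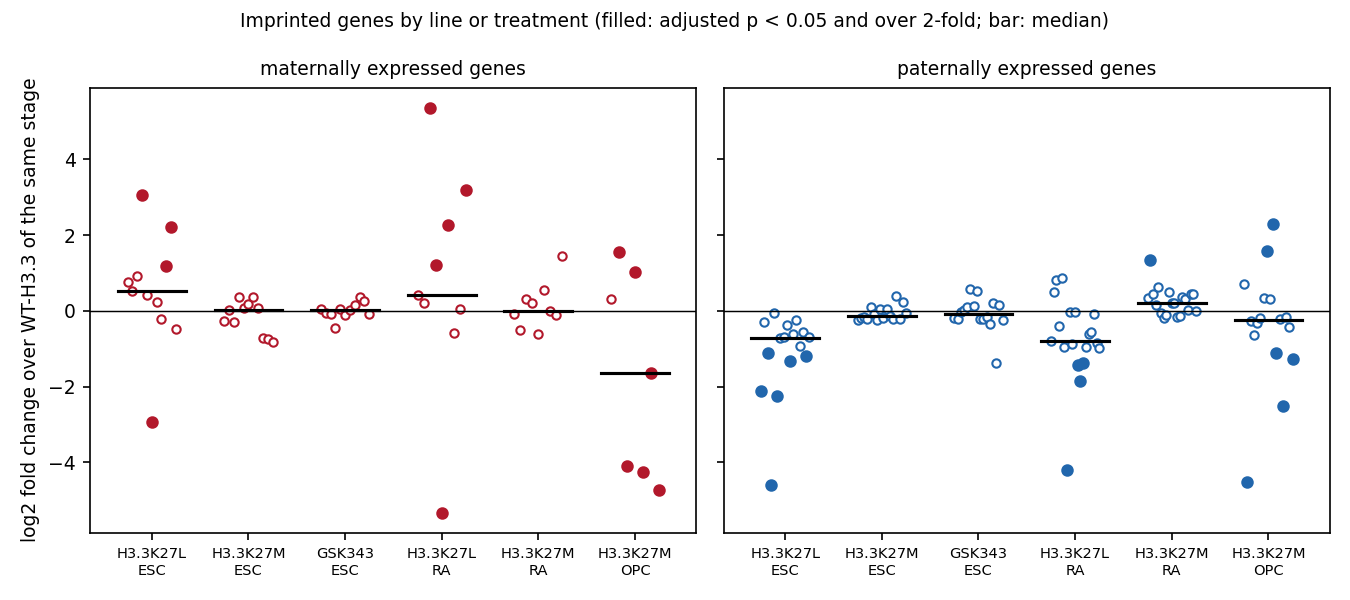
Log2 fold change of each tested maternally and paternally expressed gene in the 6 comparisons of a line or treatment with WT-H3.3 of the same stage. Each point is a gene, filled where called, and the bar is the median. In H3.3K27L ESCs the 16 paternally expressed genes lie below 0 and 8 of 11 maternally expressed genes above it.

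In RA-treated cells H3.3K27L again had high Grb10 and low Mest and H19 against WT-H3.3, with 1 library per line at each time. Grb10 was at 485 CPM at 24 h and 267 at 72 h in H3.3K27L, at 15.1 and 3.69 CPM in WT-H3.3 and at 19.3 and 3.67 CPM in H3.3K27M. Both H3.3K27L libraries lay above all others, and Grb10 rose by 5.36 (log2, SE 0.30, adjusted p = 1.61e-06) against WT-H3.3. Its value was 6.36 without the H3.3K27L library at 24 h and 6.04 without that of WT-H3.3. Of 31 imprinted genes tested 9 were called, beside 3.68% of 12265 genes. The 3 not tested were Kcnq1, Slc22a18 and Ascl2. These calls came from the fit with Dox time as a block. Without it the 24 and 72 h libraries of a line are spread apart by time, and 0 genes were called in all, 0 imprinted genes among them. The change from 24 to 72 h correlated between pairs of lines with r from 0.932 to 0.959 across 9221 genes of the same 6 libraries, genes not being independent.

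Among maternally expressed genes, Igf2r, the receptor that clears IGF2, was at 393 and 198 CPM at 24 and 72 h in H3.3K27L and at 86.3 and 36.3 CPM in WT-H3.3. It was higher at either time, by 2.28 log2 units (SE 0.18, adjusted p = 3.18e-05). Airn, the noncoding RNA read through Igf2r on the opposite strand of the paternal copy, was at 16.3 and 2.53 CPM against 22.2 and 11.1 (-0.80, SE 0.34, adjusted p = 0.194). Zim1, a zinc-finger gene beside Peg3, was at 51.9 and 6.14 CPM in H3.3K27L and at 5.69 and 0.526 CPM in WT-H3.3, the last being 1 count. It rose by 3.19 (SE 0.33, adjusted p = 0.000405). H13 was at 125 and 142 CPM against 48.8 and 67.4, and rose by 1.22 (SE 0.17, adjusted p = 0.00309). H19 was at 33.7 and 38.7 CPM in H3.3K27L and at 1215 and 1767 CPM in WT-H3.3. H19 fell by 5.32 (SE 0.22, adjusted p = 1.37e-07), with H3.3K27M between them but near WT-H3.3, at 749 and 1211 CPM. The maternal calls were 4 higher (1.52% of all genes) and 1 lower (2.15% of all genes) of 9 tested.

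Of 19 tested paternally expressed genes in RA-treated cells 4 were called lower and none higher. Mest was at 62.1 and 3.61 CPM in H3.3K27L and at 1310 and 39.0 CPM in WT-H3.3, and fell by 4.20 log2 units (SE 0.25, adjusted p = 2.36e-06). Its level was lower at 72 h than at 24 h in every line, and at either time H3.3K27L was the lowest. Whether the 24 and 72 h libraries were prepared together is not given. A difference of time and one of preparation cannot be told apart. Peg10, a retrotransposon-derived gene needed for the placenta, was at 2828 and 103 CPM against 8910 and 435, and fell by 1.86 (SE 0.21, adjusted p = 0.000862). Peg3 was at 1811 and 848 CPM against 4122 and 2490, and fell by 1.37 (SE 0.20, adjusted p = 0.00326). Nnat, a small membrane protein of the developing brain, was at 50.01 and 5.42 CPM against 118 and 23.7, and fell by 1.44 (SE 0.22, adjusted p = 0.00427). Zrsr1, Plagl1 and Mcts2 passed the adjusted p with values from -0.97 to -0.96, under the 2-fold rule. Over the averaged fit 16 of 19 values were below 0, with a median of -0.80, and 7 of 9 maternal values were above 0, with a median of 0.43, beside 0.01 over all genes. At 24 h H3.3K27L was below WT-H3.3 for 14 of the 19 and at 72 h for 16, while it was above for 8 of 9 maternally expressed genes at 24 h and for 5 at 72 h.

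**Figure D4:**
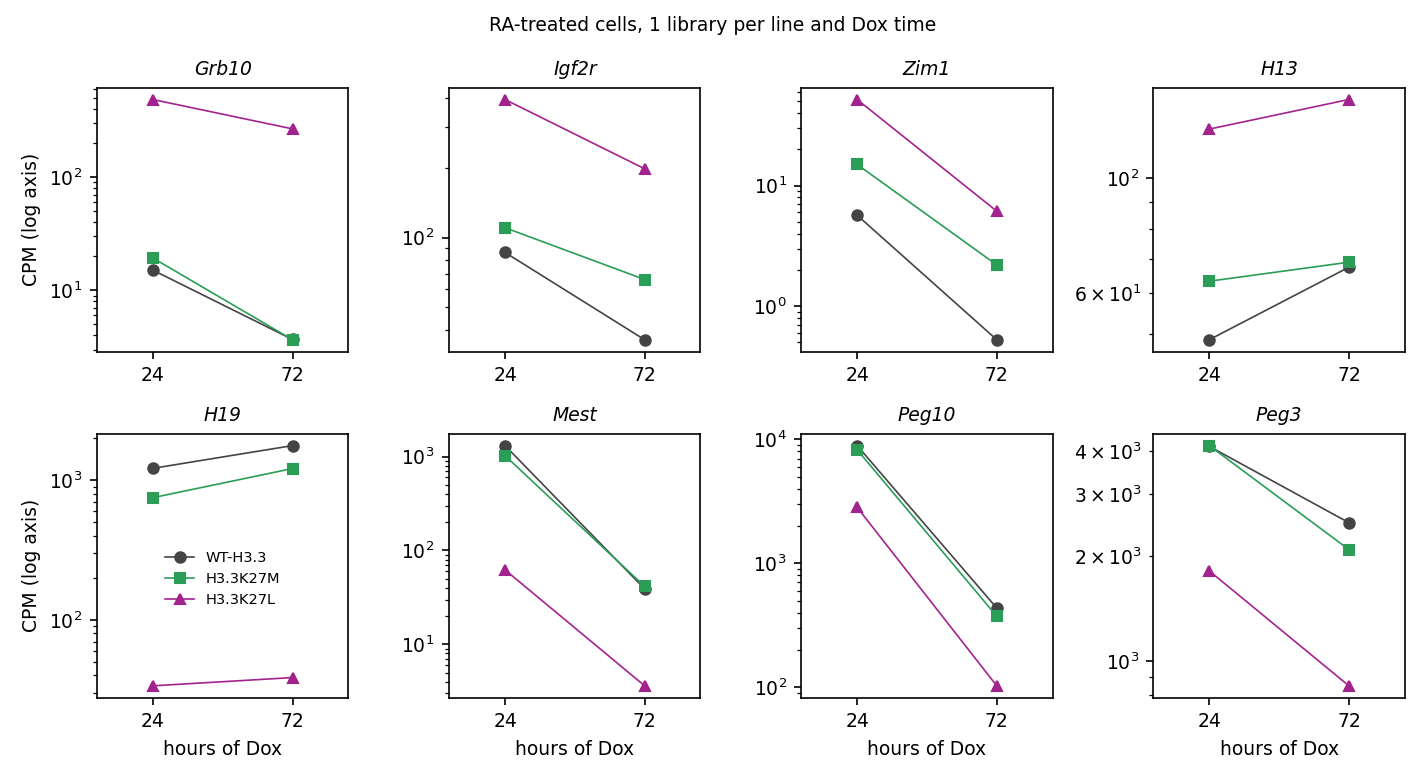
Level of 8 imprinted genes in the 6 libraries of RA-treated cells, in CPM on a log axis, at 24 and 72 h of Dox, 1 library per line and time. In H3.3K27L, Grb10 is at 485 and 267 CPM against 15.1 and 3.69 in WT-H3.3, and H19 is at 33.7 and 38.7 CPM against 1215 and 1767.

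Other cell markers moved with the line in RA-treated cells. Of 9 tested markers of extraembryonic endoderm 6 were called higher in H3.3K27L, beside 1.52% of all genes, and their sum was 2620 to 6870 CPM in H3.3K27L, 981 to 3450 in WT-H3.3 and 816 to 1020 in H3.3K27M, with none of 10 at 0. ESC markers summed to 386 to 524 CPM in H3.3K27L and to 220 to 273 in WT-H3.3, with 2 of 6 tested called higher. Markers of neural progenitors, the labelled cell type, summed to 280 to 358 CPM in H3.3K27L and to 401 to 525.6 in WT-H3.3, with 1 of 7 tested called lower, Nes (-1.28, adjusted p = 0.00481), which encodes an intermediate filament of neural stem cells. Neuron markers summed to 7.80 to 11.6 CPM against 18.03 to 21.6, with 1 of 2 tested called lower, Dcx (-1.87, adjusted p = 0.0181), which encodes a microtubule-binding protein of young neurons. The part of these markers in the imprinted gene differences was not tested. Leaving out a library leaves its line with 1 in these cells, so the number of genes called in such fits is not given. Of 20 tested genes that keep or erase imprints or write H3K27me3 none was called by edgeR, beside 3.68% of all genes. Among 27 further imprinted genes Slc38a4, an amino acid transporter, and Dio3, which inactivates thyroid hormone, were called lower (-1.16 and -1.54), beside 2.15% of all genes. Among 22 genes of insulin and IGF signalling the ligand Igf1 (-1.20) and the binding protein Igfbp2 (-1.23) were called lower.

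H3.3K27M in RA-treated cells gave 1 called imprinted gene of 31, beside 0.0163% of all genes (0.00815% higher and 0.00815% lower). Dlk1 was at 175 and 809 CPM at 24 and 72 h in H3.3K27M and at 71.2 and 306 CPM in WT-H3.3. It rose by 1.35 (SE 0.16, adjusted p = 0.015), and it was not called without the Dox time block, under which 0 imprinted genes were called. Zim1 (1.45, adjusted p = 0.188) and H19 (-0.62, adjusted p = 0.43) ranked next. Grb10 had a value of 0.32 (SE 0.32, adjusted p = 0.955), which was -0.74 without the H3.3K27M library at 24 h.

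The size of the H3.3K27L difference was compared between RA-treated cells and ESCs with a test of the difference itself, in a model of all 42 libraries. None of 33 imprinted genes was called, beside 0.00607% of 16478 genes. Igf2r ranked first, with a log2 difference 2.35 larger in RA-treated cells (SE 0.59, adjusted p = 0.304), and was followed by Zim1 at 4.24 (SE 1.16, adjusted p = 0.467) and H13 at 0.83 (SE 0.26, adjusted p = 0.699). For Grb10 it was 1.83 (SE 0.85, adjusted p = 1). By edgeR 7 imprinted genes were under an unadjusted 0.05. With DESeq2, with no filter on low counts, or with a term for Dox time, 2 imprinted genes were called. The share of all genes called under these settings is not given here. Stage goes with separate tables, and the library kit of each library is not given in the sources used here.

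Most imprinted genes differed between RA-treated cells and ESCs. In RA-treated cells averaged over the lines 21 of 33 tested imprinted genes were called higher than in ESCs and none lower, beside 46.6% of all genes called, 25.7% higher and 20.9% lower. The ESCs compared were those of the same lines at 24 and 72 h of Dox, the shallow H3.3K27L library included. The ESC ranges of CPM given here span every Dox time. All 19 paternally expressed genes had a value above 0, and 14 were called. H19 was at 1.15 to 2.04 CPM in WT-H3.3 ESCs and at 1175 and 1440 CPM in WT-H3.3 RA-treated cells on the scale of all 42 libraries, and its value over the lines was 8.60 (SE 0.20, adjusted p = 1.13e-21). Peg3 was at 91.2 to 141 CPM against 2030 and 3986 in the same groups, with a value of 4.64 (SE 0.20, adjusted p = 7.22e-17). Dlk1 (7.35), Airn (7.32), Peg10 (6.0), Magel2 (4.78), Sgce (4.46), Cdkn1c (4.46), Usp29 (3.93), Ndn (3.21), Meg3 (3.15) and H13 (1.27) complete the 12 of lowest adjusted p. Grb10 averaged over the lines had a value of 0.41 (SE 0.34, adjusted p = 0.291), which was -0.17 without the WT-H3.3 library at 24 h and -0.27 without that of H3.3K27M. Stage and table cannot be told apart in this comparison, nor in that with OPCs.

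Grb10 was lower in OPCs expressing H3.3K27M than in those expressing WT-H3.3. The level at 24 and 72 h of Dox was 0.422 and 0.260 CPM in H3.3K27M, on 3 and 2 counts, and 6.53 and 5.51 CPM in WT-H3.3. Grb10 fell by 4.10 log2 units (SE 0.49, adjusted p = 4.71e-05). Of 26 tested imprinted genes 13 were called, beside 28% of 12511 genes: 5 higher (13% of all genes) and 8 lower (15% of all genes). The share called among all genes was thus high in this comparison.

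Meg3 and Dlk1, of the same imprinted region, had the largest log2 fold changes of the tested imprinted genes in OPCs. Meg3, a long noncoding RNA of the maternal copy, was at 18.9 and 10.2 CPM in H3.3K27M at 24 and 72 h and at 380 and 382 CPM in WT-H3.3, and fell by 4.72 (SE 0.23, adjusted p = 1.51e-07). Dlk1, of the paternal copy, was at 6.62 and 7.42 CPM against 129 and 194, and fell by 4.52 (SE 0.23, adjusted p = 2.01e-07). Genes read from either parental copy thus fell together. H19 was at 8.59 and 4.82 CPM against 99.7 and 156, and fell by 4.26 (SE 0.28, adjusted p = 7.94e-07), while Igf2 had no count in the 4 OPC libraries. Plagl1, a zinc-finger gene, fell by 2.5 (adjusted p = 5.93e-06), Igf2r by 1.65, Zrsr1 by 1.27 and Peg10 by 1.11. Nnat was at 147 and 118 CPM against 24.6 and 30, and rose by 2.28 (SE 0.17, adjusted p = 1.51e-06). Nap1l5 (1.58), Gnas (1.60), the gene of the stimulatory G protein alpha subunit, Cdkn1c (1.57) and H13 (1.02) also rose. Mest (-0.18, SE 0.24) and Peg3 (-0.22, SE 0.20) were not called.

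The lines also differed in cell markers in OPCs. OPC markers summed to 1980 to 2180 CPM in H3.3K27M and to 631 to 632 in WT-H3.3, and moved both ways: of 7 tested 5 were called higher, Cspg4 (3.20) and Olig1 (2.0) among them, and 2 lower. The 2 lower were Pdgfra (-4.79, adjusted p = 3.41e-06), the growth factor receptor by which OPCs are often recognised, and Sox10 (-2.89, adjusted p = 0.00345), a transcription factor of the oligodendrocyte lineage. Fibroblast markers summed to 60.9 to 64.2 CPM against 645 to 708. Of 11 tested 9 were called lower, beside 15% of all genes, and 1 higher, Thy1 (1.06, adjusted p = 0.0049), beside 13% of all genes. Extraembryonic endoderm markers summed to 23.6 to 27.9 CPM against 170 to 230, with 8 of 8 called lower, and trophoblast markers to 2.25 to 4.17 CPM against 37.2 to 42.2. Their part in the imprinted gene differences was not tested. Of 19 tested genes that keep or erase imprints or write H3K27me3 6 were called higher, beside 13% of all genes. These were Uhrf1 (2.02) and Dnmt1 (1.46), which copy DNA methylation at replication, Dnmt3b (1.18), which adds new methylation, Tet1 (1.97), which oxidises it on the way to its removal, and Ezh2 (1.60) and Suz12 (1.04), subunits of the complex that writes H3K27me3. Dnmt3l was called lower (-6.88, SE 1.22), beside 15% of all genes. Of 23 further imprinted genes 3 were called higher and 5 lower, the latter led by Slc38a4 (-4.21), and of 21 genes of insulin and IGF signalling 2 were called higher and 3 lower, Igf1 (-4.46) among them. The totals called in these last 2 lists, 8 of 23 and 5 of 21, stand beside 28% of all genes.

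Against ESCs, OPCs averaged over WT-H3.3 and H3.3K27M had 16 imprinted genes called higher and 11 lower of 33, beside 66.4% of all genes called, 29.1% higher and 37.2% lower. Nap1l5 went from 0.510 to 1.76 CPM in WT-H3.3 ESCs to 61.5 and 89.3 CPM in WT-H3.3 OPCs, with a value of 6.96 (SE 0.33, adjusted p = 7.16e-16). Ndn (4.31), H19 (4.28), Sgce (4.28), Dlk1 (4.08), Mkrn3 (2.75), Cd81 (1.88), H13 (1.65) and Ube3a (1.58) were among those higher. Phlda2 (-5.04), Ddc (-4.76), which encodes an enzyme of dopamine synthesis and lies beside Grb10, and Igf2r (-3.04) were lower. Grb10 was lower by a log2 value of -2.96 (SE 0.57, adjusted p = 4.02e-05). All 11 tested maternally expressed genes were called, 4 higher and 7 lower, beside 13 of 19 paternally expressed genes, 10 higher and 3 lower.

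On the scale of all 42 libraries the groups fell into this order of mean Grb10 level. RA-treated H3.3K27L cells stood first at 345 CPM (224 and 467 in the 2 libraries), followed by H3.3K27L ESCs at 99.0 CPM (43.0 to 166). These groups overlapped neither each other nor any other group. H3.3K27M ESCs at 16.6 CPM (8.85 to 26.9), WT-H3.3 ESCs at 12.4 CPM (9.65 to 16.8), RA-treated H3.3K27M cells at 11.3 CPM (3.05 and 19.6), GSK343-treated ESCs at 8.84 CPM (4.95 to 15.1), RA-treated WT-H3.3 cells at 8.80 CPM (3.004 and 14.6) and WT-H3.3 OPCs at 6.44 CPM (5.80 and 7.08) followed, each overlapping the next. H3.3K27M OPCs were lowest at 0.362 CPM (0.280 and 0.444), apart from all others. The H3.3K27L groups were thus the highest at either stage in which the line was sequenced, and no H3.3K27L OPC library was used.

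**Figure D5:**
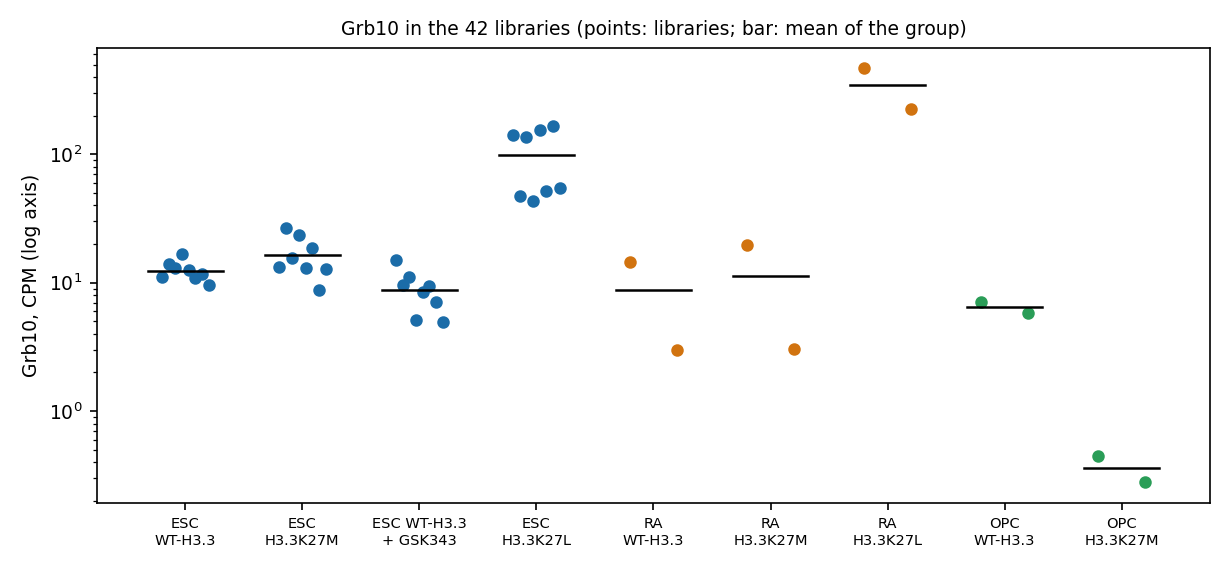
Grb10 level in 9 groups of libraries, in CPM on a log axis, scaled together over all 42 libraries. Each point is a library. RA-treated H3.3K27L cells (224 and 467 CPM) and H3.3K27L ESCs (43.0 to 166 CPM) lie above the other groups, and H3.3K27M OPCs (0.280 and 0.444 CPM) below.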

How the data were processed

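RNA-seq was done by the authors on KH2 ESC lines and their derivatives, and 3 tables of raw counts per gene were deposited, covering 32 ESC, 6 RA and 4 OPC libraries. Per the labels and the study's methods, single-end reads were aligned with STAR 2.7.1 to mm9 with up to 10 mismatches. The counting tool, strand setting and kit of each library are not given in the sources used here. Genes of chromosome 8 (1435 genes, 5.78% of counts) were left out, following the study's methods. The imprinted genes and the other lists were chosen with earlier results of these data known. All listed genes could be named, with statistics for at most 12 called genes per comparison, or the 3 of lowest p where fewer than 3 were called.

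Counts were filtered (filterByExpr), TMM-normalized and tested with edgeR 4.0.16 (R 4.3.3), by quasi-likelihood with Benjamini-Hochberg adjustment over all genes tested, in separate ESC, RA (Dox time as a block) and OPC models and a joint model of 42 libraries. The joint model held no Dox time term for RA-treated cells or OPCs, and its comparisons of stages used the ESC libraries of 24 and 72 h. CPM are counts scaled by the effective library size of the model named. Simulated counts with known changes were used to check the fits, and unlike these data they held no effect of replicate number. Replicate numbers paired the WT-H3.3 and H3.3K27M ESC libraries (r from 0.608 to 0.713 at each time, across 8507 genes). Those of H3.3K27L and GSK343-treated ESCs, which were not compared, correlated with r from 0.107 to 0.445, and the other pairs of ESC groups had r below 0.1 at 4, 8 and 24 h. Per the study's methods, replicates were biological, from experiments separated by weeks. In RA-treated cells and OPCs the 2 libraries of a line were those of 24 and 72 h. Whether these came from separate experiments is not known, so their p-values may not measure a spread between experiments. The 72 h OPC columns are numbered 2 where the labels say 1, and were matched by line and Dox time. Alternatives were DESeq2 1.42.0, median-of-ratios scaling, no low-count filter, chromosome 8 kept, the libraries compared alone, replicate or Dox time blocks, and each library left out. The crossed replicate block and the Dox time term in the joint model were chosen after seeing the data. Tables and figures used Python 3.11.15, pandas 2.3.3, NumPy 2.4.6 and Matplotlib 3.10.9.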

Additional observations from a re-analysis of the deposited data

Results flagged for a closer look

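Of 48 groups of libraries of named imprinted genes tested for a sample apart from the rest with Dixon's criterion, 4 met it, and chance meets it in about 1 group of 20. Peg3 was at 70.5 CPM in replicate 2 of H3.3K27L ESCs at 72 h, against 41.6 to 46.5 CPM in the other 7 libraries, and Mcts2 was at 0 in the same library, against 13.2 to 19.96 CPM. That library held 68378 counts. Phlda2 was at 21.2 CPM in replicate 2 of GSK343-treated ESCs at 24 h, against 3.48 to 10.1 CPM in the others. Cdkn1c was at 3.15 CPM in replicate 2 of H3.3K27M ESCs at 72 h, against 0.460 to 1.60 CPM in the others.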

How the results depend on the processing

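Alternatives gave 2006 values for named imprinted genes, of which 1931 kept their direction and side of the threshold, 60 lost the call, 8 gained it and 7 changed direction. The direction changed only where a library was left out. Without replicate 1 of H3.3K27L ESCs at 72 h, Phlda2 was at -1.26 against WT-H3.3 and -0.55 against H3.3K27M, Cdkn1c at -0.68 against H3.3K27M, and Grb10 at -0.02 between late and early times. Without the RA-treated H3.3K27M library at 24 h, Grb10 was at -0.74 for H3.3K27M in RA-treated cells and -0.27 for RA-treated cells against ESCs, and without that of WT-H3.3 at 24 h the latter was -0.17. The number of imprinted genes called was 0 without the Dox time block for H3.3K27L (9 with it) and for H3.3K27M (1 with it) in RA-treated cells, where the time difference then enters the spread. Without the low-count filter it was 2 for H3.3K27M in RA-treated cells, 1 with GSK343 and 2 for the change in the H3.3K27L difference between stages, which was also 2 with DESeq2 and 2 with a Dox time term. The cause was not tested. Where not stated above, the share of all genes called under an alternative is not given here. With single libraries left out, Phlda2 ran from -1.26 to 1.4 and from -0.55 to 2.05 in those comparisons, Cdkn1c from -0.68 to 1.70, and Grb10 from -0.0186 to 1.19 between times, from -0.74 to 1.10 for H3.3K27M in RA-treated cells and from -0.27 to 0.64 for RA-treated cells against ESCs. The number called ran from 5 to 12 in H3.3K27L ESCs against either other line, from 9 to 16 for H3.3K27L and from 0 to 2 for H3.3K27M in RA-treated cells, from 12 to 13 in OPCs, from 17 to 22 for RA-treated cells against ESCs and from 24 to 28 for OPCs against ESCs.

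With the replicate block 11 imprinted genes were called for H3.3K27L against WT-H3.3 (10 without it), 11 for H3.3K27L against H3.3K27M (11 without it), 0 for H3.3K27M and GSK343 and 13 in OPCs, where the number in the labels is the same split as Dox time, so that this block is one of time. WT-H3.3 and H3.3K27L libraries of the same number deviated in opposite directions at 4, 8 and 24 h (r from -0.708 to -0.598) and not at 72 h (r = 0.261), and a block with the numbers crossed gave 11. Genes under about 1 CPM, such as Nap1l5 and H19 in H3.3K27L ESCs, rest on few counts, and the shallow library cannot show them. It also held 0 for genes of higher level, such as Mcts2 (13.2 to 19.96 CPM in the other 7 H3.3K27L libraries) and Phlda2 (10.99 to 21.7 CPM). At its depth of 68378 counts such a 0 does not show that a gene was absent.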

Other observations

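The imprinted genes can also be grouped by the copy they are read from: the copy whose imprinting control region is methylated or the copy whose control region is not. As background, the control regions used here carry the methyl mark on the maternal copy, other than those of H19-Igf2 and Dlk1-Meg3, which carry it on the paternal copy. This grouping was chosen after the values were seen and is a description. In H3.3K27L against WT-H3.3 ESCs, all 16 tested genes read from the unmethylated copy, H19 and Meg3 included, had a log2 fold change below 0, with a median of -0.70, and 6 were called lower, beside 2.83% of all genes. Of 11 genes read from the methylated copy 8 had a value above 0, with a median of 0.53, and the exceptions were Zim1, Dlk1 and Rtl1. In this group 3 were called higher, beside 0.625% of all genes, and Dlk1 (-2.12) was called lower. These values are of the averaged fit, and the split was less complete by replicate number. Among genes read from the unmethylated copy, Snrpn (1.54), Impact (1.12), Peg10 (1.05) and Plagl1 (1.02) had ratios to WT-H3.3 above 1 in libraries numbered 1. Nnat (1.13) and Mkrn3 (1.02) did so in those numbered 2. In RA-treated cells 17 of 18 genes read from the unmethylated copy had a value below 0, with a median of -0.86 and 5 called lower (2.15% of all genes), and the exception was Magel2. Of 10 genes read from the methylated copy 9 were above 0, with a median of 0.65 and 4 called higher (1.52% of all genes), and the exception was Rtl1. By time the split was again less complete. At 24 h Magel2 (ratio 1.61), Mkrn3 (1.54), Nap1l5 (1.37) and Meg3 (1.05), read from the unmethylated copy, were above WT-H3.3. At 72 h Cdkn1c (0.876) and Phlda2 (0.926), read from the methylated copy, were below it. Methylation was not measured in these libraries.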
